A study of Mus musculus with 10 samples.

Results

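Heterotrimeric G proteins and the RGS (regulator of G protein signalling) proteins that switch them off were described in RNA from the left and right medial habenula of the mouse. The genes were chosen by symbol: names that begin with Gna (α subunits), Gnb followed by a digit from 1 to 5 (β subunits), Gng followed by a digit (γ subunits) or Rgs followed by a digit, without Rgs5 and Rgs16. A gene was kept when at least 10 reads fell on it in 4 or more libraries. This left 47 of 54 matching genes, among 32531 genes in all and 16681 that meet the same read rule. The 47 were 13 of 16 α subunits, 5 of 5 β subunits, 10 of 10 γ subunits and 15 of 19 RGS proteins. They also held 2 binding proteins of the R7 class of RGS proteins, Rgs7bp and Rgs9bp, and 2 genes that match by name only, Gnb2l1 (Rack1, a scaffold protein of the small ribosomal subunit) and Gnb1l. Gna15, Gnat1, Gnat3, Rgs1, Rgs13, Rgs18 and Rgs21 were not kept. Gna14 lay just inside the rule with 10 reads in 5 libraries (0 to 27 reads), and Rgs14 with 10 reads in 6 (0 to 61 reads). Gna15 (0 to 12 reads) and Gnat1 (0 to 10 reads) lay just outside, with 10 reads in 1 library each.

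The libraries were 5 from the left and 5 from the right medial habenula of adult mice, an epithalamic cell group that sends its output to the interpeduncular nucleus. All animals carried the Chat-TRAP transgene (line DW167), in which regulatory sequence of the gene for choline acetyltransferase drives an EGFP-tagged ribosomal protein, Rpl10a. The pull-down of tagged ribosomes (translating ribosome affinity purification) is therefore meant to take RNA being translated in cholinergic cells. Every library was such a pull-down, no treatment is named, and an unpurified input was not analysed here. Each library held 42488448 to 67942836 reads on genes. Whether the 5 libraries of each side stem from different animals is not said in the labels, so the p-values measure the spread between these libraries, which may be technical.

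A G protein is a complex of an α, a β and a γ subunit. A receptor that binds its ligand loads the α subunit with GTP, whereupon α and the βγ pair part and act on enzymes and channels. RGS proteins speed the hydrolysis of that GTP and end the signal. The α subunits of the i and o class lower cyclic AMP or free βγ pairs that act on channels, the s class raises cyclic AMP, and the q class activates phospholipase C-β; a further class, called 12, holds Gna12 and Gna13. Neurons of the medial habenula carry receptors of this kind for GABA, acetylcholine, opioid peptides and tachykinins.

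Libraries of replicates 1 and 5 stood apart from the other 6 on both sides. CPM is counts per 1e6 gene reads. Marker lists are given as the mean log2 CPM of those of their genes that passed the read filter of the side comparison. For these means, CPM was scaled by TMM over the filtered genes, with a prior count of 2 that weighs most at low counts. The 12 markers of cholinergic habenular neurons all had at least 10 reads in every library; their mean was 9.20 to 9.28 in replicates 1 and 5 and 8.18 to 8.89 in the other 6 libraries. The 15 astrocyte markers averaged 1.24 to 1.38 in replicates 1 and 5 and 3.32 to 5.13 in the other 6, and the 10 oligodendrocyte markers 1.87 to 2.26 and 3.78 to 5.87 in the same order. The 5 markers of oligodendrocyte precursors averaged 0.11 to 0.40 against 2.13 to 4.06, and the 7 thalamic markers 4.79 to 4.83 against 6.09 to 7.03. Of 6 GABAergic markers (Vip at 0 in a library), the 5 that passed the filter averaged 1.21 to 1.42 against 2.65 to 4.73. The 4 lateral habenular markers averaged 2.76 to 3.14 against 4.43 to 5.89, and Sst is on both lists. Of 10 microglial markers, 4 had 10 reads in every library and Aif1 was at 0 in a library. The 9 microglial markers that passed the filter averaged -1.62 to -1.52 against 0.43 to 1.73. Of 12 endothelial and pericyte markers, 2 had 10 reads in every library, and Cdh5 and Cldn5 were at 0 in a library. All 12 passed the filter and averaged -2.94 to -1.77 against -0.06 to 1.48, so the prior count weighs on the lower values. A glial score, the mean over 46 markers of astrocytes, oligodendrocytes, microglia and vessels, was -0.23 to 0.08 in replicates 1 and 5 and 1.97 to 3.67 in the other 6, lowest of these 6 in right replicate 2. Replicates 1 and 5 were run on lanes 7, 3 and 2 and the others on lanes 4, 5 and 1, so lane and this split cannot be told apart. In RNA from many cells, fewer cells of a type and less RNA per cell cannot be told apart either. The libraries most alike were replicates 1 and 5 of the right side, at 1.38 times the variance that counting alone gives, and replicates 1 and 5 of the left side, at 2.65 times; the next pair was at 4.56 times, and none was merged.

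Together the 47 genes took 0.968% to 1.20% of gene reads. Levels of different genes are compared as CPM per kb of exon (CPM divided by the length of all exons of a gene), with SD over 5 libraries per side. On that scale the most abundant were Gng3, a γ subunit of neurons, at 466 ± 106 in left and 469 ± 106 in right libraries, and Gnb1, the main β subunit, at 336 ± 93.0 in left and 329 ± 67.0 in right libraries. Gnao1, the α subunit Go, stood at 264 ± 11.5 in left and 258 ± 37.2 in right libraries. Gng8, a γ subunit known from olfactory and vomeronasal neurons, stood at 213 ± 104 in left and 231 ± 113 in right libraries, and Gnas, the stimulatory α subunit Gs, at 212 ± 23.4 in left and 204 ± 18.5 in right libraries. By mean level per kb these 5 ranked 26, 41, 62, 83 and 91 among 23901 genes with a known length. The spread of Gng8 spans the means of both of its neighbours in this order, Gnao1 and Gnas. The order also rests on the length used for each gene. With the longest transcript as length, Gnas (589 CPM per kb over all 10 libraries) and Gnao1 (522) came before Gng3 (467). With the mean transcript length, Gnao1 (1697), Gnas (1133), Gnb1 (788) and Gng8 (566) all came before it. The same 5 genes led with each of the 3 lengths, in a different order.

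**Figure D1:**
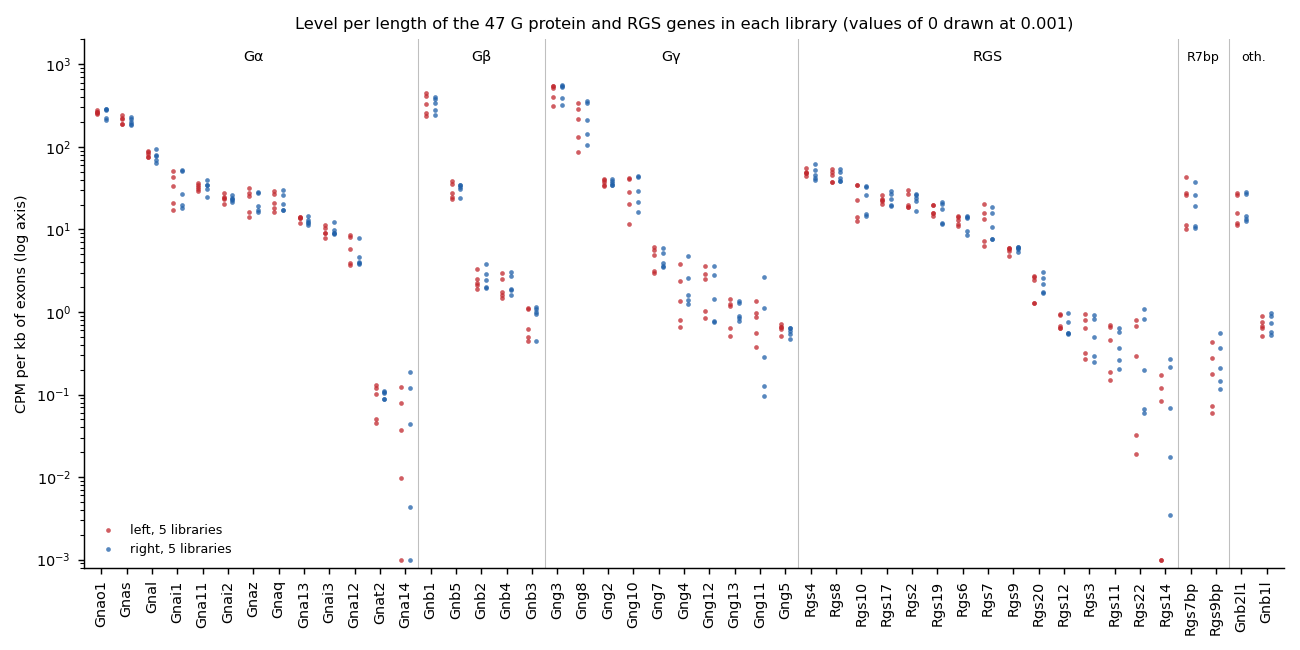
Level of each of the 47 genes in CPM per kb of exon on a log axis, with 1 point per library (left in red, right in blue, 5 each); genes are grouped by family and ordered by mean level. Gng3, Gnb1, Gnao1, Gng8 and Gnas lead by this length, and the 2 sides overlap in every gene.

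The α subunits summed to 722 ± 58.2 CPM per kb in left and 700.0 ± 53.8 in right libraries. Gnao1 held 36.7 ± 2.67% of that sum in left and 36.7 ± 4.02% in right libraries, and Gnas 29.3% in left and 29.1% in right libraries. Gnal, the α subunit Golf, which raises cyclic AMP in olfactory and striatal neurons, came next with 11.3% in left and 11.0% in right libraries. By class, i and o subunits together held 49.1% in left and 49.6% in right libraries (47.8% to 50.6% over the libraries). The s class held 40.6% and 40.1%, the q class 7.62% and 7.89%, and the 12 class 2.70% and 2.49%, left and right in that order. With the longest transcript as length the s class led, with 51.3% in left and 50.8% in right libraries, against 43.0% and 43.4% for the i and o class. With the mean transcript length the i and o class led with 52.6% in left and 53.0% in right libraries. Which of these classes is larger thus depends on the length used, while for a given length each share moved by little between libraries.

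Gnao1 had 2929, 2829, 2799, 3123 and 2919 CPM in left replicates 1 to 5, against 3151, 3207, 2490.3, 2321 and 3068 CPM in right replicates 1 to 5. Right replicates 3 and 4 were the lowest of all 10, and the sides overlapped. Gnas had 2102, 2413, 2482, 2729 and 2129 CPM in left and 2218, 2566, 2407, 2053 and 2145 CPM in right libraries, a range of 1.33-fold that is among the narrowest of these genes. Gnal had 908, 974, 847, 989 and 841 CPM in left and 900.2, 1042, 773, 717 and 872 CPM in right libraries, again with overlap. Gnai1, which inhibits adenylyl cyclase, varied far more. It had 65.8, 105, 135, 162 and 53.4 CPM in left and 61.9, 83.6, 161, 165 and 57.1 CPM in right libraries: replicates 1 and 5 were the 4 lowest, on either side. Gnai2, of the same class, had 87.6, 103, 90.1, 76.2 and 92.2 CPM in left and 89.0, 97.5, 81.0, 91.4 and 86.9 CPM in right libraries, with no such split. Gna11, of the q class, had 128, 149, 135, 118 and 139.5 CPM in left and 143, 164, 127, 101 and 142 CPM in right libraries. The share of Gnai1 in the α sum ran from 2.57% in left replicate 5 to 8.34% in right replicate 4. Gna13, of the 12 class, had 89.4, 88.0, 91.1, 89.8 and 77.0 CPM in left and 79.4, 93.5, 83.3, 73.2 and 76.0 CPM in right libraries. Its relative Gna12 had 12.5, 19.7, 27.4, 29.3 and 13.2 CPM in left and 13.7, 15.8, 26.7, 12.9 and 13.4 CPM in right libraries, high in left replicates 3 and 4 and right replicate 3.

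The remaining α subunits are given to account for all of them. Gnaq, the other main q subunit, averaged 137 ± 35.2 CPM in left and 136 ± 35.5 in right libraries, and Gnaz, an inhibitory subunit that pertussis toxin does not modify, 82.8 ± 26.8 in left and 78.6 ± 21.3 in right libraries. Gnai3 averaged 31.1 ± 4.52 CPM in left and 31.9 ± 4.58 in right libraries. Gnat2, the transducin of cone photoreceptors, and Gna14 stayed below 1 CPM in every library.

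Several α subunits lie beside a relative in the genome (GRCm38, 1-based). In 5 such pairs 1 neighbour was at or near 0 reads, or far below the other per kb. Plain CPM and reads in these sentences are per gene, and only values given as CPM per kb are per length. Gnai1 on the minus strand at chr5:18265135-18360355 averaged 105 CPM, whereas Gnat3, the gustducin of taste cells at chr5:17962549-18019834, had 0 to 3 reads per library. Gnai2 at chr9:107614125-107635367 averaged 89.5 CPM and Gnat1, the transducin of rods at chr9:107674474-107679712, had 0 to 10 reads. Gna11 at chr10:81528724-81545190 averaged 135 CPM and Gna15, 4.5 kb away at chr10:81502306-81524225, had 0 to 12 reads. Gnaq at chr19:16132831-16387463 averaged 22.2 CPM per kb in left libraries, and Gna14, 48.3 kb away, 0.0499 in the same libraries. Gnai3 at chr3:108107280-108146146 averaged 9.54 CPM per kb in left and 9.79 in right libraries, and Gnat2, 5.8 kb away, 0.090 in left and 0.0992 in right libraries. A run of 5 RGS genes on chromosome 1 was alike in this: Rgs2 at chr1:143999338-144004161 had 3723 to 6459 reads, while Rgs13, Rgs1, Rgs21 and Rgs18, which follow it up to position 144775435, had at most 5 reads in any library.

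The β subunits summed to 371 ± 100.3 CPM per kb in left and 367 ± 70.8 in right libraries. Gnb1 held 90.4 ± 0.688% of the sum in left and 89.7 ± 1.06% in right libraries. Gnb5 held 8.17% in left and 8.64% in right libraries. Gnb5 is the atypical β subunit, which pairs with R7 RGS proteins in place of a γ subunit. Gnb1 had 1904, 1397, 1087, 1010.2 and 1762 CPM in left replicates 1 to 5 and 1715, 1462, 1042, 1187 and 1624 CPM in right replicates 1 to 5, the 4 highest values being those of replicates 1 and 5. Gnb5 had 119.8, 87.1, 76.2, 72.9 and 109.9 CPM in left and 108, 101, 75.6, 96.8 and 107 CPM in right libraries, with the same 4 libraries on top. Gnb4 averaged 26.1 ± 8.07 CPM in left and 28.1 ± 7.99 in right libraries, and was likewise highest in replicates 1 and 5. Gnb2, which most tissues make, was low here, at 8.25 ± 1.95 CPM in left and 8.92 ± 2.64 in right libraries, and lay lowest in those 4 libraries. Gnb3, the β subunit of cones, had 2.98, 1.62, 1.17, 1.31 and 2.83 CPM in left and 2.85, 2.49, 1.18, 3.01 and 2.61 CPM in right libraries, and right replicate 4 was its highest library.

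The γ subunits summed to 755 ± 217 CPM per kb in left and 779 ± 225 in right libraries. Gng3 held 62.7 ± 5.19% of the sum in left and 61.2 ± 5.0% in right libraries, and Gng8 26.7 ± 6.62% in left and 28.2 ± 6.47% in right libraries; with the mean transcript as length Gng3 held 38.8% over the 10 libraries and Gng8 came first. Gng2 held 5.23% in left and 5.02% in right libraries, and Gng10 3.62% and 3.87%. The γ subunit is held in the membrane by a prenyl lipid that is joined near its end, at a site encoded by the last 4 codons before the stop. The end of the coding sequence is shown for the 4 most abundant γ subunits and for Gng4, Gng12 and Gng11, so that subunits that split the libraries can be compared with those that did not. Each is the last 60 coding bases, 5′ to 3′ on the gene's own strand, from the GENCODE M21 transcripts of GRCm38, and capitals mark the last 4 codons.

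Gng3: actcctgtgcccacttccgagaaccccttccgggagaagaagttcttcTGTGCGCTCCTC
Gng8: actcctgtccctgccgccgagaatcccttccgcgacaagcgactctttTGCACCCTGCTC
Gng2: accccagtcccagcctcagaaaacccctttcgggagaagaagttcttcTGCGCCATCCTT
Gng4: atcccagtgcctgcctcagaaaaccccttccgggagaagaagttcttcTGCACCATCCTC
Gng10: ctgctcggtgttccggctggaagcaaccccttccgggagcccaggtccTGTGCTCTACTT
Gng12: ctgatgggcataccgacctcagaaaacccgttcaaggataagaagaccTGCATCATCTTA
Gng11: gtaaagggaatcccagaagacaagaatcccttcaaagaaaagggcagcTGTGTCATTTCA

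All 10 γ genes begin the last 4 codons with TGT or TGC, the codon of the residue that takes the lipid. Over the 60 bases Gng2 and Gng4 matched at 54 and Gng2 and Gng3 at 47, whereas Gng3 and Gng8 matched at 43. Gng11 ends in TCA; it is known as a farnesylated subunit, while most γ subunits carry the longer geranylgeranyl lipid. Gng2 and Gng4, the pair most alike in these bases, varied differently across libraries: Gng2 was the steadiest of the genes averaging 1 CPM or more, with a ratio of highest to lowest library of 1.22, and Gng4 among the least steady, at 7.21.

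Gng3 had 851, 897, 654, 515 and 909 CPM in left replicates 1 to 5 and 899, 865, 534, 639 and 918 CPM in right replicates 1 to 5, with replicate 2 of both sides as high as replicates 1 and 5. Gng8 had 439, 334, 203, 131 and 512 CPM in left and 512, 324, 162, 215 and 546 CPM in right libraries. Replicates 1 and 5 were the 4 highest, replicate 2 stood between, and the sides overlapped over a 4.17-fold range. Gng10 followed the same order, with 54.5, 37.5, 26.9, 15.3 and 53.0 CPM in left and 58.7, 38.2, 21.6, 28.5 and 57.2 CPM in right libraries. Gng2 had 178, 176, 149.9, 148 and 165 CPM in left and 180.2, 158, 151, 152 and 169 CPM in right libraries. Gng12 ran the other way, with 4.91, 11.7, 13.5, 17.0 and 4.02 CPM in left and 3.60, 6.80, 17.0, 13.4 and 3.69 CPM in right libraries. Gng7, which pairs with Golf in the striatum, averaged 17.3 ± 5.51 CPM in left and 16.9 ± 4.20 in right libraries and was also lowest in replicates 1 and 5. Gng4 had 2.66, 4.50, 12.8, 7.83 and 2.18 CPM in left and 4.69, 5.37, 15.7, 8.54 and 4.18 CPM in right libraries, highest in replicate 3 of both sides. Gng5 averaged 1.74 ± 0.206 CPM in left and 1.59 ± 0.195 in right libraries, Gng13 0.775 ± 0.312 and 0.798 ± 0.214, and Gng11 0.756 ± 0.352 and 0.789 ± 1.0, left and right in that order. The share of Gng8 in the γ sum ran from 18.8% in left replicate 4 to 35.6% in right replicate 5, and that of Gng3 from 55.5% in right replicate 5 to 68.4% in left replicate 4.

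Some of these genes share exons or sequence with another gene, which leaves that part of their counts uncertain. Of the 47 genes, 16 shared no stretch of 50 exonic bases with any other annotated gene and 7 shared 10% or more of such stretches. The share was 71.47% in Gng10, with the readthrough gene Gm20503, 42.96% in Gng13, with Chtf18 on the opposite strand, and 21.89% in Gng3, with Bscl2 on the opposite strand. It was 18.93% in Gng2, 18.65% in Gnas, 11.43% in Rgs3 and 10.79% in Gna12. Gng8 shared none.

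The 15 RGS proteins summed to 215 ± 7.77 CPM per kb in left and 215 ± 6.73 in right libraries, and ran from 207 in right replicate 5 to 225 in left replicate 4. That sum was steadier than those of the α, β and γ subunits, whose lowest and highest libraries were 632 and 807, 264 and 490.4, and 458 and 1007 CPM per kb. Rgs4, of the R4 class, a brake on i, o and q subunits, held 22.7 ± 1.60% in left and 22.5 ± 3.96% in right libraries. With the mean transcript as length, Rgs4 held 11.1% over the 10 libraries. Rgs8 then came first, and Rgs10 and Rgs6 also came before Rgs4. By all exons Rgs8, a neuronal protein of the same class, held 20.8% in left and 20.6% in right libraries. Rgs10, Rgs17 and Rgs2 held 11.0%, 10.6% and 10.5% in left and 11.5%, 10.9% and 10.8% in right libraries. The 4 members of the R4 class held 54.3% in left and 54.2% in right libraries, the 3 of the RZ class (Rgs17, Rgs19 and Rgs20) 19.5% and 19.7%, the 4 of the R7 class (Rgs6, Rgs7, Rgs9 and Rgs11) 14.6% and 14.1%, and the 3 of the R12 class (Rgs10, Rgs12 and Rgs14) 11.4% and 11.8%. Rgs22 belongs to none of these. The R4 class stayed first with the longest transcript (45.9% in left and 45.8% in right libraries) and the mean transcript (51.0% and 51.1%), but the R7 class then came before RZ.

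Rgs4 had 148, 154, 150.2, 171 and 136 CPM in left and 129, 141, 194, 164 and 124 CPM in right libraries, and Rgs8 365, 436, 472, 515 and 366 CPM in left and 376, 514, 475, 407 and 369.7 CPM in right libraries. Rgs8 was lowest in replicates 1 and 5, by a small margin. Rgs10, a small protein that acts on i-class subunits and is also made by microglia, had 59.5, 38.8, 24.3, 21.5 and 59.5 CPM in left and 58.0, 44.2, 26.3, 25.1 and 56.4 CPM in right libraries. It was highest in replicates 1 and 5, the libraries in which microglial markers were lowest. The part of each cell type in the Rgs10 reads was not tested. Rgs2, which acts mainly on the q class, had 108, 67.9, 71.1, 67.5 and 97.1 CPM in left and 96.2, 80.4, 60.8, 87.6 and 94.4 CPM in right libraries. Rgs17 averaged 189.5 ± 17.0 CPM in left and 196 ± 35.9 in right libraries, and Rgs19 38.3 ± 5.60 in left and 36.8 ± 10.2 in right libraries. Rgs20, known to act on Gαz, had 5.48, 10.2, 11.6, 11.2 and 5.41 CPM in left and 7.30, 9.36, 10.9, 12.8 and 7.15 CPM in right libraries. The share of Rgs10 in the RGS sum ran from 5.59% in left replicate 4 to 16.4% in left replicate 5.

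Proteins of the R7 class work as a complex with Gnb5 and are brought to the membrane by Rgs7bp, Rgs9bp or, for Rgs7, the orphan receptor Gpr158. The parts of this complex did not share 1 pattern over the libraries. Rgs6 had 146, 129, 115, 109.8 and 139.8 CPM in left and 139.6, 146, 86.6, 95.1 and 141 CPM in right libraries, high in replicates 1, 2 and 5. Rgs7 had 43.2, 81.5, 93.8, 121 and 38.2 CPM in left and 46.5, 63.9, 113, 94.3 and 46.5 CPM in right libraries, lowest in replicates 1 and 5. Rgs9, which is known from striatum and retina, had 38.0, 30.3, 37.4, 38.5 and 34.7 CPM in left and 38.7, 39.1, 36.6, 33.7 and 38.5 CPM in right libraries, within a 1.29-fold range. Rgs11, the R7 protein of retinal bipolar cells, averaged 1.81 ± 1.07 CPM in left and 1.71 ± 0.81 in right libraries. Rgs7bp had 80.5, 187, 198, 303 and 71.1 CPM in left and 77.2, 137, 263, 187 and 73.5 CPM in right libraries, and replicates 1 and 5 lay well below the rest. Gpr158, which is not one of the 47 genes, averaged 121 ± 82.7 CPM in left and 116 ± 75.2 in right libraries and was lowest in the same 4 libraries. Rgs9bp, the anchor of Rgs9 in photoreceptors, averaged 1.35 ± 1.04 CPM in left and 1.84 ± 1.19 in right libraries. In the 4 libraries with the lowest glial and thalamic marker levels, Gnb5 was thus at its highest, Rgs7, Rgs11 and both anchors at their lowest, and Rgs9 near its mean. The part of the other cell types' RNA in these values was not tested.

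**Figure D2:**
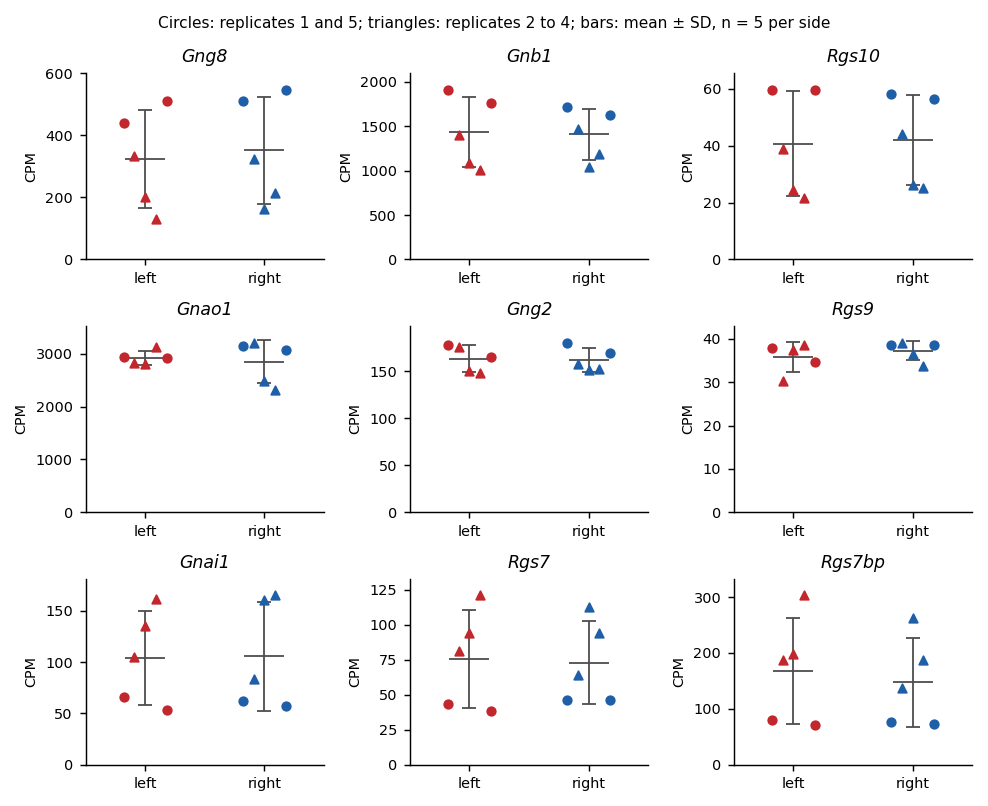
CPM per library for 9 genes, left (red) before right (blue), with circles for replicates 1 and 5, triangles for replicates 2 to 4, and bars for mean ± SD over 5 libraries; axes start at 0. In Gng8, Gnb1 and Rgs10 the circles lie above all triangles, in Gnai1, Rgs7 and Rgs7bp below them, and in Gnao1, Gng2 and Rgs9 they mix.

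Left was compared with right to ask whether RNA bound to tagged ribosomes differs between the 2 sides of the nucleus. None of the 46 genes tested passed the threshold. The comparison used edgeR's quasi-likelihood test with Benjamini-Hochberg adjustment over all 16250 genes tested, of which 0.0% were called at an adjusted p under 0.05. With an unadjusted p under 0.05 the test gave 0 of the 46 genes and 90 of all genes. Those 90 of 16250 are far fewer than that threshold gives by chance, so the p-values of this fit run high. A fit by side alone counts the split between libraries as spread within each side, and the part of that was not tested. The lack of calls therefore does not show that the sides are alike. DESeq2 called 0 of the 46 (0 unadjusted, and 141 of all genes), and limma-voom with sample weights called 0, with 9 of the 46 and 2359 of all genes unadjusted. Of the 46 log2 fold changes, left minus right, 17 were above 0 and 29 below, with a median of -0.03; over all genes 7520 were above and 8730 below, with a median of -0.01. The split of signs did not hold across settings: it was 22 above and 24 below with plain library sizes, and 26 above and 20 below with limma-voom.

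The width of the intervals differed between genes. For Gnao1 the log2 difference, left minus right, was 0.02 with a 95% interval of -0.21 to 0.25, for Gnas 0.04 (-0.19 to 0.26) and for Gng2 -0.01 (-0.21 to 0.19). For Gnb1 it was 0.01 (-0.45 to 0.47), for Gng3 -0.03 (-0.47 to 0.42) and for Rgs4 -0.01 (-0.33 to 0.30). The genes that split the libraries had wide intervals: -1.09 to 0.83 around -0.13 for Gng8, -0.96 to 0.85 around -0.06 for Gnai1, and -0.91 to 1.21 around 0.15 for Rgs7bp. Over the 46 genes the median half-width was 0.53, against 0.52 over all genes, and 34 of the 46 intervals lay within a change of 1 in either direction. The smallest unadjusted p of this edgeR fit, 0.357, belonged to Gna13 (0.08, -0.11 to 0.27; adjusted p = 1), followed by Gna12 at 0.370 (0.28, -0.38 to 0.94), Gnb3 at 0.390 (-0.31, -1.09 to 0.46) and Rgs9 at 0.399 (-0.08, -0.28 to 0.12). The point estimates ran from -0.66 for Rgs14 to 0.28 for Gna12.

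**Figure D3:**
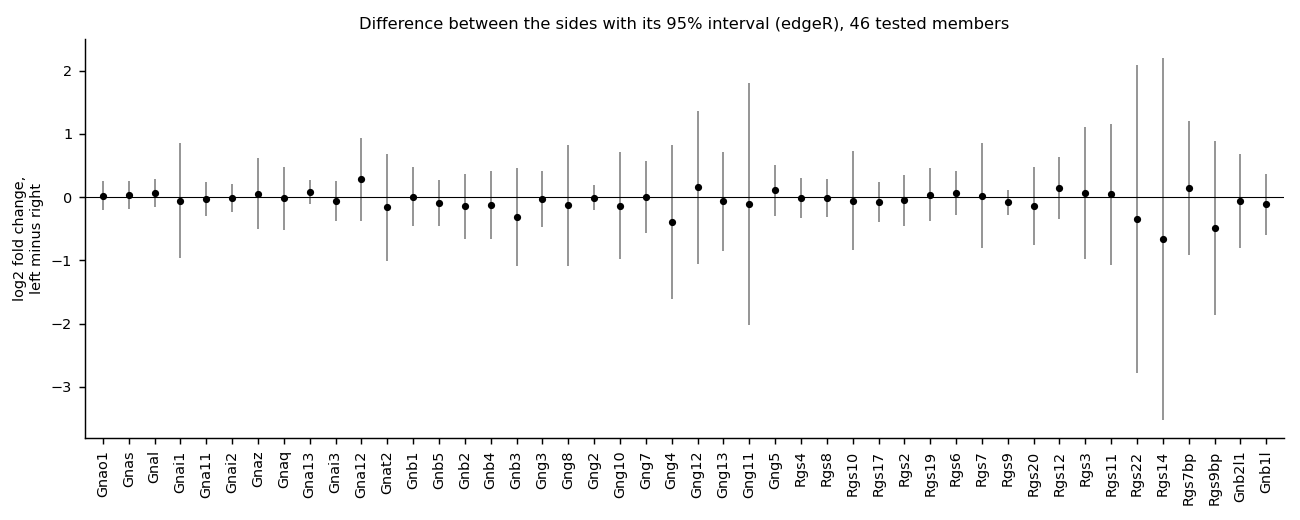
Log2 fold change, left minus right, of the 46 genes tested, as points with 95% intervals from the edgeR fit; the line marks 0. All 46 intervals hold 0, and those of Rgs14, Rgs22 and Gng11 are the widest.

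The 4 libraries of replicates 1 and 5 gave another count when they were compared alone. There, edgeR called 6 of 45 genes (13.3%), against 12.8% of all 15569 genes tested, a share close to the background. Higher on the left were Gnb1 (log2 fold change 0.14, edgeR adjusted p = 0.0498) and Gng11 (2.02, adjusted p = 0.0172). Higher on the right were Gng4 (-0.87, adjusted p = 0.00921), Rgs20 (-0.41, adjusted p = 0.019), Rgs9bp (-1.0, adjusted p = 0.0307) and Rgs22 (-1.28, adjusted p = 0.048), again by edgeR. In replicates 2 to 4 alone the same contrast was -0.10 for Gnb1, -0.37 for Gng11, -0.25 for Gng4, -0.02 for Rgs20, -0.37 for Rgs9bp and -0.28 for Rgs22, each with an adjusted p of 1 by edgeR. The contrast of Gng11 rests on 0.506 and 0.343 CPM in left and 0.0894 and 0.118 CPM in right libraries. Since the libraries of replicates 1 and 5 of a side were the most alike of all pairs, they may not be separate samples, and these 6 calls then measure less than the spread between animals. The difference between the contrast in replicates 1 and 5 and in replicates 2 to 4 was not tested.

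Between libraries the genes varied about as much as others did. Of 42 genes averaging 1 CPM or more, the median ratio of highest to lowest library was 1.89 and 20 exceeded 2, against a median of 1.86 and 5670 of 13274 over all genes with such a mean. The ratio ran from 1.22 for Gng2, 1.28 for Gna13, 1.29 for Rgs9 and 1.33 for Gnas up to 7.21 for Gng4, 9.19 for Rgs9bp and 57.4 for Rgs22, with Gng12 at 4.72, Rgs11 at 4.65 and Rgs7bp at 4.27 between. Rgs22 had 0.185, 1.66, 3.87, 4.52 and 0.108 CPM in left and 0.343, 1.12, 4.64, 6.21 and 0.383 CPM in right libraries.

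**Figure D4:**
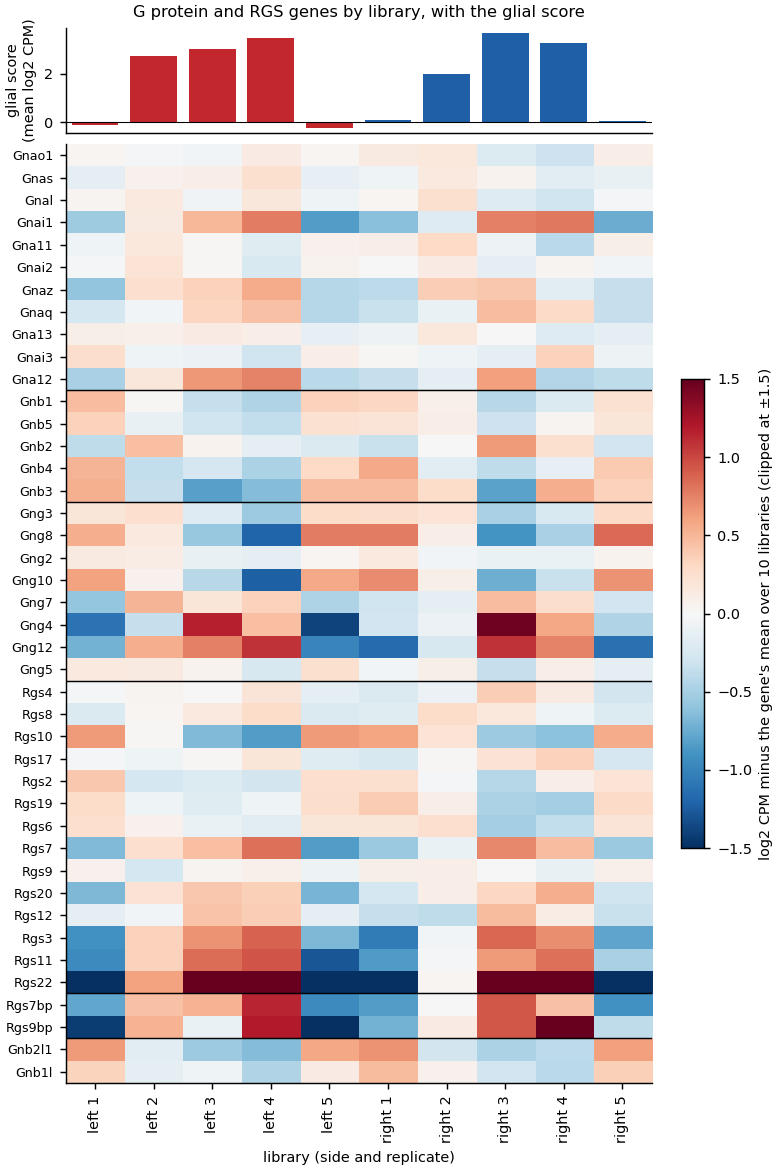
Log2 CPM of the 42 genes averaging 1 CPM or more, each minus its own mean over 10 libraries (red above, blue below, clipped at ±1.5), with left libraries before right ones; bars on top give the glial score, the mean log2 CPM of 46 glial and vessel markers. Replicates 1 and 5 have scores of -0.23 to 0.08 and share their reds (Gng8, Gng10, Rgs10) and blues (Gng12, Rgs3, Rgs22) on both sides.

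Counted over the 47 genes, 11 (23.4%) had all 4 values of replicates 1 and 5 above those of the other 6 libraries, against 22.4% of the 16681 genes that meet the read rule, and 16 (34.0%) had all 4 below, against 24.4%. Among 42 genes with 10 reads in every library the counts were 11 above and 13 below. The share of all genes under that stricter rule was not counted, so whether these 42 genes differ from the background cannot be judged. The genes above were Gnb1, Gnb4 and Gnb5 of 5 β subunits, Gng8, Gng10 and Gng13 of 10 γ subunits, Rgs2, Rgs10 and Rgs19 of 15 RGS proteins, and Gnb1l and Gnb2l1. No α subunit was among them. Those below were Gnai1, Gnaq, Gnaz and Gna14 of 13 α subunits, Gnb2 of the β subunits, Gng7 and Gng12 of the γ subunits, both R7 binding proteins, and Rgs3, Rgs7, Rgs8, Rgs11, Rgs14, Rgs20 and Rgs22. Gna14 and Rgs14 met the read rule only through the other 6 libraries. The rule itself thus favours their place below, and the count over 42 genes leaves them out. Gnb2l1, had 140.4 and 135 CPM in left replicates 1 and 5 and 144 and 138 CPM in the right ones, and 57.2 to 80.9 CPM in the other 6. The glial score, the thalamic markers and the lane all moved with this split. So did read measures. Of uniquely aligned reads, 13.57% to 14.96% fell outside genes in replicates 1 and 5, against 15.09% to 18.87% in the other 6. Ambiguous reads made up 2.68% to 2.81% against 2.25% to 2.48%. Alignments that were not unique numbered 49901042 to 61844050 against 20669186 to 48262398. The part of each of these in the split was not tested.

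The promoters of a gene from each side of that split are shown, since Gng8 and Rgs7bp moved in opposite directions over a similar range. Each is the 250 bases before the annotated start, from RefSeq on GRCm38.p6, printed 5′ to 3′ on the strand of the gene. They lie at chr7:16891536-16891785 on the plus strand for Gng8 and at chr13:105054931-105055180 on the minus strand for Rgs7bp. Capitals mark a match to GGGCGG, the core of the GC box, on either strand.

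Gng8: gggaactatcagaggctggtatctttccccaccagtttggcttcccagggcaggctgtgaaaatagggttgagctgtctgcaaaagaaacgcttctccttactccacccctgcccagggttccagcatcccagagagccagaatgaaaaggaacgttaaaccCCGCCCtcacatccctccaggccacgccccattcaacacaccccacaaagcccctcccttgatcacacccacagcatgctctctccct
Rgs7bp: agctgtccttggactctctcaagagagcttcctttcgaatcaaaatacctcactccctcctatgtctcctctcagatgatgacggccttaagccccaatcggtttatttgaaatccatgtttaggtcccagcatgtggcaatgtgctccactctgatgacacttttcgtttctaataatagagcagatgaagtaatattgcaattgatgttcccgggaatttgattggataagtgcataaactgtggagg

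The Gng8 promoter was 56.0% G and C and held 1 match, on the opposite strand, and no TATAAA. The Rgs7bp promoter was 43.2% G and C and held neither motif. On either strand GGGCGG was found in 51.0% of 49 promoters of 36 of the genes, against 32.7% of all 32851 promoters in the table, TATAAA in 16.3% against 12.4%, and CGCG in 63.3% against 33.8%. The median G and C content was 61.2% and 52.4% in the same order. GGGCGG and CGCG, which can overlap at an end base, depend on that content, and several genes have more than 1 promoter here, so these shares are a description.

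Partners of these proteins were taken from a list of activators, R7 anchors, effectors, receptor kinases and arrestins, of which 35 were in the files and 34 met the read rule. By edgeR 0 of 33 tested passed the threshold between the sides (1 at an unadjusted p under 0.05; DESeq2 called 0, with 1 unadjusted, and limma-voom 0, with 6), and the median log2 fold change, left minus right, was 0.02, with 19 above 0 and 14 below. The list held 4 genes (11.8%) above and 16 (47.1%) below in replicates 1 and 5, where all genes gave 22.4% and 24.4%. Plcb4, a phospholipase C that q subunits activate, averaged 435 ± 298 CPM in left and 410.2 ± 285 in right libraries, and was among the 16. It was named after its values were seen.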

How the data were processed

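RNA bound to tagged ribosomes was measured in 10 pull-down libraries, grouped by the side and replicate number in their titles. The authors deposited unnormalised read counts for each gene, made, per the submitters' processing notes, with HTSeq and STAR 2.0.0e on mm10; for annotation, strand setting and filters the sources used here give nothing. Of 32537 entries in a file, 6 name no gene and entered neither totals nor tests; of uniquely aligned reads, 13.57% to 18.87% fell outside genes and 2.25% to 2.81% were ambiguous. Reads that match several places were not counted for genes, per the counter's lines in the files. All 47 genes matched GENCODE M21 (GRCm38), which gave coordinates and exon lengths.

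Plain CPM used the sum of gene reads. Left was compared with right with edgeR 4.0.16 in R 4.3.3 (TMM, filterByExpr at a minimum of 10 counts, robust quasi-likelihood fit by side, two-sided, Benjamini-Hochberg over all genes tested, threshold 0.05); intervals are 95% intervals from the F statistic. The fit was tested on simulated data, drawn independently for each library from a common profile. Those data held no split of replicates 1 and 5, so that test cannot show how the fit handles it. The members and lists were chosen with earlier results of these data known. Named genes were the 6 α, all β, 7 γ and 10 RGS genes with the highest CPM per kb, the 6 with the largest and 4 with the smallest ratio of highest to lowest library among those averaging 1 CPM or more, and the 4 with the smallest unadjusted p; others are named to account for all 47. Alternatives were other scalings and filters, DESeq2 1.42.0, limma-voom (limma 3.58.1), the glial score as covariate, replicate and lane blocks, other gene lengths, subsets of replicates, and each library left out. Plots were made in Python 3.11.15 with matplotlib 3.10.9.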

Additional observations from a re-analysis of the deposited data

Results flagged for a closer look

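Among 68 groups of 5 libraries (34 named genes on 2 sides), 3 held a library far from the other 4 of its side; chance puts about 1 in 20 groups past that limit. Gnb3 was low in right replicate 3, at 1.18 CPM, against 2.49 to 3.01 CPM in the other right libraries. Gna13 was low in left replicate 5, at 77.0 CPM, against 88.0 to 91.1 CPM in the other left libraries. Gna12 was high in right replicate 3, at 26.7 CPM, against 12.9 to 15.8 CPM in the other right libraries, and that library had the highest glial score of all 10, 3.67. Right replicate 4, with a glial score of 3.26, had the lowest Gna12 value of the right side, 12.9 CPM. The part of glial RNA in these values was not tested.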

How the results depend on the processing

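The count of called genes stayed at 0 in 23 of 24 alternatives, both among the members and among all genes; with replicates 1 and 5 alone it was 6 members and 1992 of all genes. Leaving out each library in turn gave 0 and 0, and a median log2 fold change of the members between -0.05 and -0.003; it was above 0 only with limma-voom, at 0.10. Of 816 results for 34 named genes, 811 stayed on the same side of the threshold and 5 passed it anew, all in replicates 1 and 5 alone; elsewhere the smallest adjusted p was 0.285 (limma-voom), and 32 of the 34 changed sign in at least 1 alternative, all but Rgs9 and Gna13. The replicate number as a block gave 0 members (1 unadjusted) and 0 of all genes (297 unadjusted). Same-numbered libraries deviated together at correlations of 0.86, 0.096, 0.806, 0.715 and 0.873 for replicates 1 to 5. Differently numbered libraries did so as closely (0.848 for left 1 with right 5, 0.863 for left 5 with right 1, 0.859 for left 4 with right 3), and replicate 2 did not pass 0.1. These correlations follow the split of replicates 1 and 5 (-0.856 for left 1 with right 3). They therefore cannot show whether the numbers pair libraries, and the main fit used no pairing. Same-numbered libraries of replicates 2 to 5 shared a lane, those of replicate 1 did not. A lane block in replicates 2 to 5 gave 0 of 47 members (1 unadjusted, and 133 of 16517 over all genes). The glial score as covariate gave 0 of 46 members (2 unadjusted, and 505 of 16250 over all genes). Shares within a family depended on the length used. Gnao1 held 36.7% of the α sum, 47.8% with the mean transcript length and 40.2% in replicates 1 and 5. Gnb1 held 90.1% of the β sum, 88.9% with the longest and 87.6% with the mean transcript. Gng3 held 62.0% of the γ sum, 51.9% with the longest and 38.8% with the mean transcript, and 56.5% in replicates 1 and 5. Rgs4 held 22.6% of the RGS sum, 18.0% with the longest and 11.1% with the mean transcript. By the mean transcript Rgs8, Rgs10 and Rgs6 passed Rgs4. Median-of-ratios scaling put Gna12 also below in replicates 1 and 5 (17 of 47, or 36.2%, against 25.1% of the 16681 genes that meet the read rule).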
